A study of Mus musculus with 12 samples.

Results

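The miR-26 and miR-101 families were followed in mouse gastrocnemius, the large calf muscle, at 2 ages. The members are the guide strands mmu-miR-26a-5p, mmu-miR-26b-5p, mmu-miR-101a-3p and mmu-miR-101b-3p, picked by name and written below without the species prefix. They are 4 of the 1900 mature miRNAs in the table, and all 4 passed the filter that left 482 miRNAs for testing. Small RNA was sequenced from 12 muscles of male C57BL/6 mice, 6 young (6 months) and 6 aged (24 months). The labels list no engineered allele and no treatment for either group. Levels are in FPKM, that is, reads per kilobase of the mature sequence and scaled to the total mapped in that library. Error is given as SD over the 6 libraries of an age.

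A microRNA is cut from a hairpin, and as a rule one arm, the guide, is loaded into Argonaute while the passenger arm is lost. The guide pairs with target mRNAs mainly through its seed, bases 2 to 8. The miR-26 hairpins lie inside genes of the CTD small phosphatases, and miR-26 and miR-101 are both known to repress Ezh2, the methyltransferase of Polycomb repressive complex 2 that places the repressive H3K27 methyl mark. Ezh2 holds back muscle genes in myoblasts, and its loss accompanies their differentiation. No protein or mRNA of Ezh2 was analysed here.

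The mature sequences are shown because they decide which members can share targets. All 4 members matched a RefSeq entry, and the sequences are those of RefSeq on GRCm38.p6. The seed is in capitals.
miR-26a-5p: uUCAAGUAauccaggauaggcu
miR-26b-5p: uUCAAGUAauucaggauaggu
miR-101a-3p: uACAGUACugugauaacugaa
miR-101b-3p: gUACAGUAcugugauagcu
The miR-26 pair had the seed UCAAGUA in common and was identical in 19 of 21 aligned bases. The differences, counted from the 5′ end of miR-26a-5p, were C11U and C21U, both outside the seed. Within the miR-101 pair, the annotated miR-101b-3p starts 1 base earlier than miR-101a-3p, so its seed is shifted by 1 base although 17 of 18 aligned bases were identical. The substitution, counted from the 5′ end of miR-101a-3p, was A16G. The table holds 1 value for each mature name, so reads with another 5′ end could not be separated.

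MiR-26a-5p comes from a pair of loci. Mir26a-1 lies at chr9:119031796-119031885 (GRCm38.p6, plus strand) in an intron of Ctdspl. Mir26a-2 lies at chr10:126995530-126995613 (plus strand) in Ctdsp2, where it overlaps an annotated exon. Mir26b lies at chr1:74394310-74394394 (plus strand) in an intron of Ctdsp1. Mir101a lies at chr4:101346945-101347027 (minus strand) in E130102H24Rik, where it also overlaps an annotated exon. Mir101b lies at chr19:29135279-29135375 (plus strand) in an intron of Rcl1. The same mature sequence leaves the Mir26a-1 and Mir26a-2 hairpins, and the table gave each a row. These rows differed by at most 3.53% in any library, and in 12 of 12 libraries the difference was within 2 SD of a random division of the same reads (plus the rounding of the table). They were summed, and the loci cannot be told apart.

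The young libraries held an estimated 198138 to 6240881 miRNA reads each, and the aged libraries 123038 to 7514805. These totals are approximate. They exceeded the estimated mapped reads in young replicate 3 (308356 against 298523) and in aged replicates 2, 4 and 5. Some pairs of entries had identical fits by limma. The log2 change was 0.239767 (SE 0.13646) for both miR-24-3p and miR-3074-5p. It was -1.93921 (SE 0.274405) for both miR-136-3p and miR-3071-5p. The reads of such pairs thus appear to count under both names, also in the summed FPKM, the ranks and the shares of all tested miRNAs. How many reads this concerns was not tested. Depth followed age in most libraries. Young replicates 1 to 5 had at most 550261 reads and young replicate 6 had 6240881, while 5 of 6 aged libraries had at least 1244449 and aged replicate 5 had 123038. Of the miRNAs that mark skeletal muscle fibres (miR-1a-3p, miR-133a-3p, miR-133b-3p, miR-206-3p, miR-208b-3p and miR-499-5p), 6 of 6 were detected and their summed level was 4594296 to 7378806 FPKM in young and 4497092 to 5333858 FPKM in aged muscle. The summed levels of other cell types were 5828 to 10486 and 3022 to 10507 FPKM for 3 red blood cell miRNAs, 8449 to 19468 and 11136 to 24904 for 4 white blood cell miRNAs, 307743 to 455685 and 336491 to 382329 for 2 endothelial miRNAs, and 3896906 to 5861645 and 4795224 to 6106709 for 2 smooth muscle miRNAs, young before aged. The fibre sum is mostly miR-133a-3p, whose log2 change was -0.17 (adjusted p = 0.679 by limma), while miR-206-3p of the same list rose by 1.54 (adjusted p = 0.0296). The smooth muscle pair differed in sign, at 0.17 (adjusted p = 0.679) for miR-143-3p, which makes up most of that sum, and -0.43 (adjusted p = 0.0975) for miR-145a-5p. Every marker of these 4 other lists was above 0 in all 12 libraries, as were 4 of the 6 fibre markers; miR-208b-3p and miR-499-5p were not. The part of cell mixture in the results was not tested, and in whole muscle fewer cells of a type and less RNA per cell cannot be told apart.

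Muscle held these families at levels that spanned more than an order of magnitude, and their order was the same in every library. MiR-26a-5p stood highest, at ranks 7 to 11 among all mature miRNAs. MiR-101a-3p followed at ranks 22 to 24, then miR-26b-5p at 29 to 39 and miR-101b-3p at 51 to 59. On the FPKM scale, miR-26a-5p exceeded miR-101a-3p by 10.5-fold, miR-101a-3p exceeded miR-26b-5p by 1.98-fold, and miR-26b-5p exceeded miR-101b-3p by 2.61-fold. The 10.5-fold step counts both rows of miR-26a-5p, and with the copies counted once it was 5.24-fold, again in 12 of 12 libraries. Each step held in 12 of 12 libraries (two-sided exact permutation of signs, p = 0.000488 for each, the smallest that 12 libraries can give), and no neighbours in this order overlapped in their ranges. The order was taken from the mean levels in these same 12 libraries, so these p-values are no independent support of it. The miR-26 family made up 3.42% ± 0.761 of the summed FPKM in young muscle (SD, n = 6) and 3.37% ± 0.228 (SD, n = 6) in aged muscle. The miR-101 family made up 0.368% ± 0.0438 (SD, n = 6) and 0.364% ± 0.0239 (SD, n = 6).

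**Figure D1:**
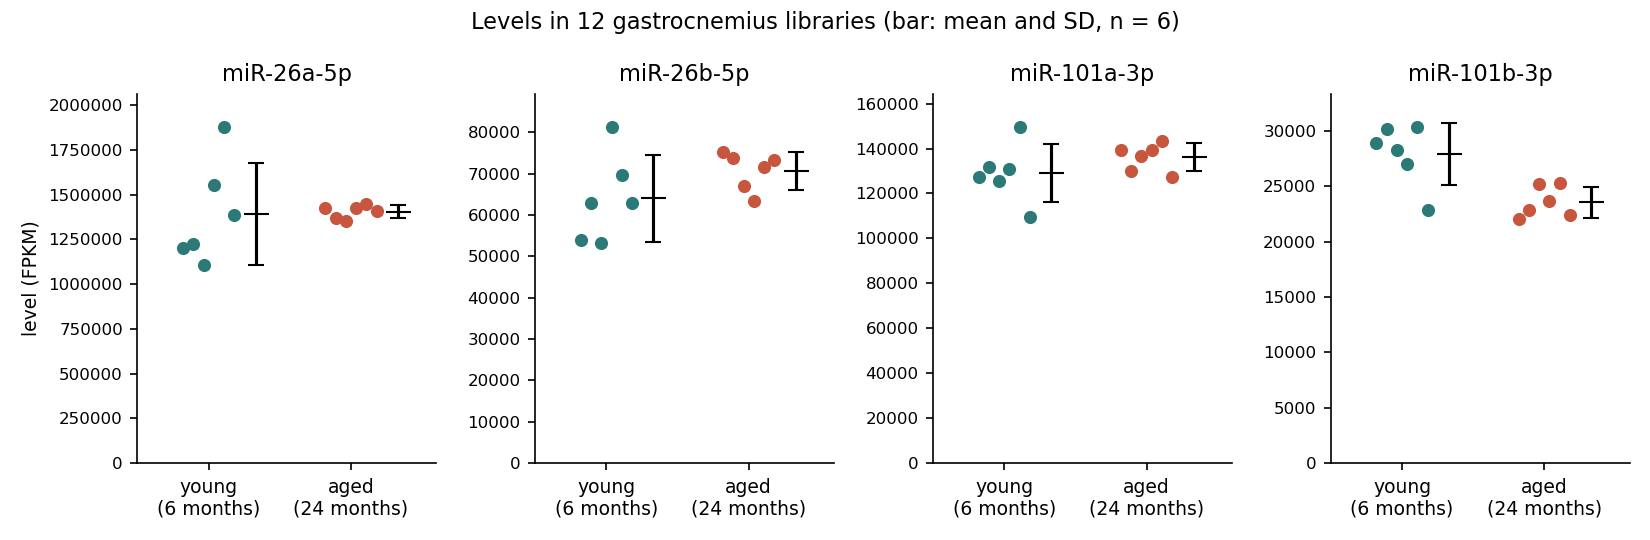
Level of each member (FPKM, each panel on its own linear axis from 0) in the 6 young and 6 aged libraries; points are libraries in the order of their replicate numbers, bars are mean and SD. MiR-26a-5p spread from 1108390 to 1877184 FPKM among young libraries and from 1355130 to 1447585 FPKM among aged ones, and miR-101b-3p lay below the young median in 6 of 6 aged libraries.

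The first question was whether the level of a member differed between the ages. None of the 4 members passed an adjusted p of 0.05 (limma on log2(FPKM + 48.2), Benjamini-Hochberg over 482 miRNAs), a threshold that 2.9% of all tested miRNAs passed. At an unadjusted p under 0.05 the count was 1 of 4, miR-101b-3p, against 12.9% of all tested miRNAs. With a fold of at least 1.5 required as well, 0 of the 4 and 9.75% of all passed. None of the 4 had aged libraries all above or all below the young ones, which 2.7% of all tested miRNAs had. An exact permutation test for each miRNA called none of the 482 after adjustment. Its lowest adjusted p was 0.0803, with 13 miRNAs at 0.00216, the smallest unadjusted p it can give. That no member passed by this test thus does not set the members apart from the other miRNAs. The median log2 change of the 4 was 0.06, beside 0.07 over all tested miRNAs.

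MiR-26a-5p is the main product of its family. It measured 1200337, 1225559, 1108390, 1551483, 1877184 and 1388416 FPKM in young replicates 1 to 6. In aged replicates 1 to 6 it measured 1422537, 1369301, 1355130, 1427450, 1447585 and 1407865 FPKM. The aged libraries lay close together and inside the young range, with 6 of 6 above the young median. The coefficient of variation was 20.5% in young and 2.55% in aged muscle, and this difference in spread was not tested. The log2 change from young to aged was 0.04 (SE 0.13, 95% interval -0.24 to 0.31, limma adjusted p = 0.949). As folds, the interval runs from 0.849 to 1.24.

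MiR-26b-5p, with the same seed, was the minor product. Young replicates 1 to 6 gave 53975, 62866, 53232, 81245, 69755 and 62866 FPKM, and aged replicates 1 to 6 gave 75281, 73732, 66913, 63304, 71716 and 73223 FPKM. The groups overlapped, and 6 of 6 aged libraries were above the young median. Its log2 change was 0.16 (SE 0.11, 95% interval -0.08 to 0.39, limma adjusted p = 0.583). MiR-26a-5p supplied 95.6% ± 0.503 of the family in young muscle (SD, n = 6) and 95.2% ± 0.313 in aged muscle (SD, n = 6).

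MiR-101a-3p was the main product of the miR-101 family. Young replicates 1 to 6 gave 127488, 131984, 125733, 131072, 149522 and 109457 FPKM. Aged replicates 1 to 6 gave 139509, 130167, 136638, 139509, 143431 and 127488 FPKM. All aged values lay within the young range. The log2 change was 0.08 (SE 0.10, 95% interval -0.13 to 0.29, limma adjusted p = 0.797).

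MiR-101b-3p had the lowest level of the members and a mean 15.6% lower in aged muscle, at 27935 ± 2782 FPKM in young muscle (SD, n = 6) and 23583 ± 1411 FPKM (SD, n = 6) in aged muscle. Young replicates 1 to 6 gave 28924, 30153, 28329, 26987, 30362 and 22851 FPKM. Aged replicates 1 to 6 gave 22073, 22851, 25180, 23657, 25355 and 22381 FPKM. Young replicate 6 was the low one of its group and made the groups overlap, and the other 5 young libraries were above every aged library. Young replicate 6 is also the single deep young library (6240881 reads), and the highest aged value, 25355 FPKM, fell in the single shallow aged library, replicate 5 (123038 reads). The part of depth in this level was not tested. The log2 change was -0.24 (SE 0.11, 95% interval -0.47 to -0.01) with an unadjusted p of 0.0385 and an adjusted p of 0.344 by limma. By exact permutation the unadjusted p was 0.013. The level rested on 58 to 3713 estimated reads per library, the fewest in aged replicate 5.

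**Figure D2:**
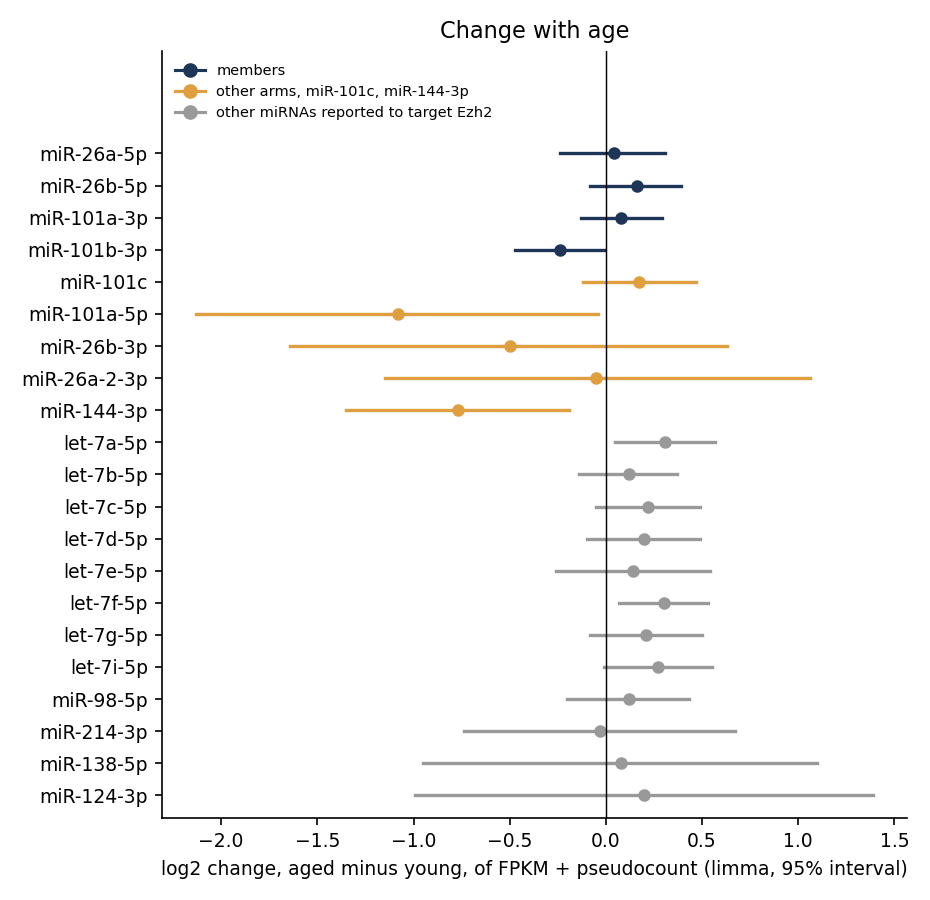
Log2 change from young to aged of FPKM plus the pseudocount (points) with the 95% interval of limma (lines) for the 4 members, for the other arms, miR-101c and miR-144-3p, and for 12 other miRNAs reported to target Ezh2. The intervals of miR-26a-5p, miR-26b-5p and miR-101a-3p span 0, that of miR-101b-3p ends at -0.01, and none of the miRNAs drawn passed an adjusted p of 0.05.

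The ratio of a pair of members within a library does not depend on how the library was scaled, so the balance inside each family was compared next. The ratios are of FPKM, that is, of reads divided by the length of the mature sequence, so they are not ratios of reads. The ratio of miR-101a-3p to miR-101b-3p rose with age. It was 4.40, 4.37, 4.43, 4.85, 4.92 and 4.78 in young replicates 1 to 6 and 6.31, 5.69, 5.42, 5.89, 5.65 and 5.69 in aged replicates 1 to 6. The 6 aged ratios were all above the highest young ratio. On the log2 scale the ratio was 2.21 ± 0.08 in young muscle (SD, n = 6) and 2.53 ± 0.07 (SD, n = 6) in aged muscle, a change of 0.32 or 1.25-fold. The two-sided exact permutation test gave p = 0.00216, the smallest that 6 against 6 libraries can give, and 0.00649 after Benjamini-Hochberg adjustment over the 3 ratios compared. In the same terms, miR-101b-3p supplied 17.8% ± 0.789 (SD, n = 6; range 16.9 to 18.6) of the family in young and 14.8% ± 0.64 (SD, n = 6; range 13.7 to 15.6) in aged muscle.

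Ratios whose ages did not overlap were not rare in this table. Among 22155 pairs of the 211 miRNAs with a mean of at least 482 FPKM, 6.96% had no overlap between young and aged libraries. The other 2 ratios overlapped. MiR-26a-5p to miR-26b-5p had a log2 ratio of 4.43 ± 0.18 in young muscle (SD, n = 6) and 4.31 ± 0.10 (SD, n = 6) in aged muscle, with a change of -0.12 (exact permutation p = 0.18, adjusted 0.269). MiR-26a-5p to miR-101a-3p had a log2 ratio of 3.41 ± 0.24 (SD, n = 6) and 3.37 ± 0.05 (SD, n = 6), with a change of -0.04 (exact permutation p = 0.662, adjusted 0.662).

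**Figure D3:**
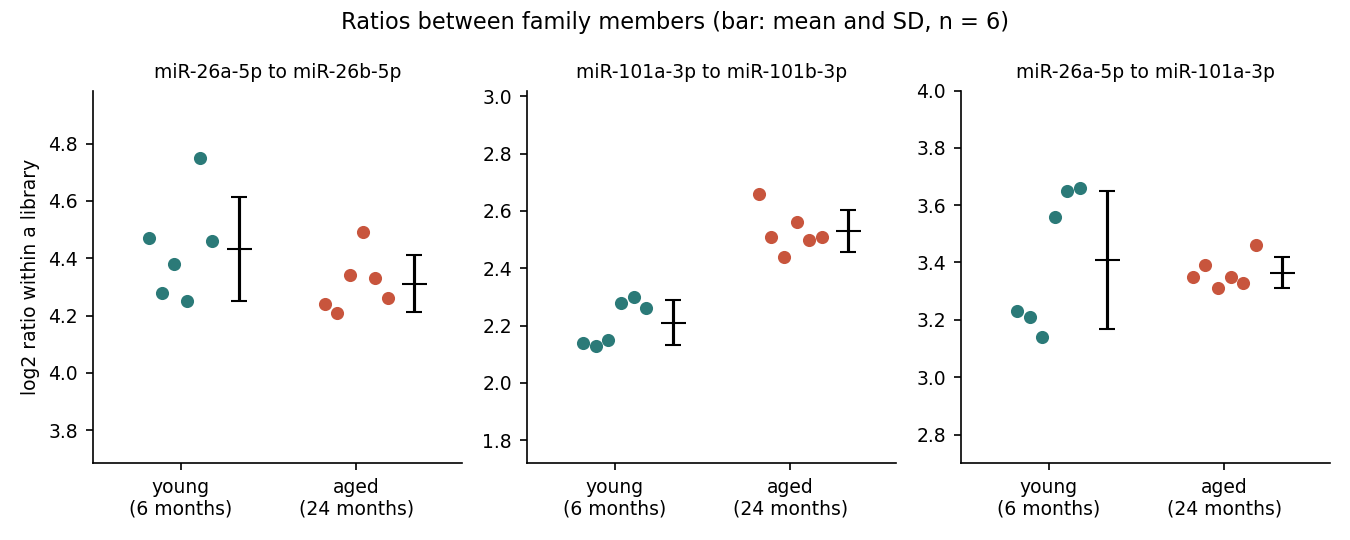
Log2 ratio of 3 pairs of members within each library, by age; points are libraries in the order of their replicate numbers, bars are mean and SD, and each panel spans the same range of log2 units. For miR-101a-3p to miR-101b-3p the young libraries lie between 2.13 and 2.30 and the aged ones between 2.44 and 2.66, while the other pairs overlap.

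Because depth followed age in most libraries, the miR-101 ratio was set beside depth. The ratio is again of FPKM, and reads are given only for the counting error. In young replicate 6, the deepest young library, its log2 was 2.26 with a counting SD of 0.03, from 15006 reads of miR-101a-3p and 2834 of miR-101b-3p. In aged replicate 3, the deepest aged library, it was 2.44 with a counting SD of 0.026, from 22270 and 3713 reads. In aged replicate 5, the shallowest library of all, it was 2.50 with a counting SD of 0.20, from 363 and 58 reads. The deepest libraries of the 2 ages thus differed by 0.18, less than the 0.32 between the group means, and only 1 library of each age had the depth usual for the other. The part of depth in the ratio was not tested. Counting errors treat reads as independent molecules, and no molecular identifiers were used.

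**Figure D4:**
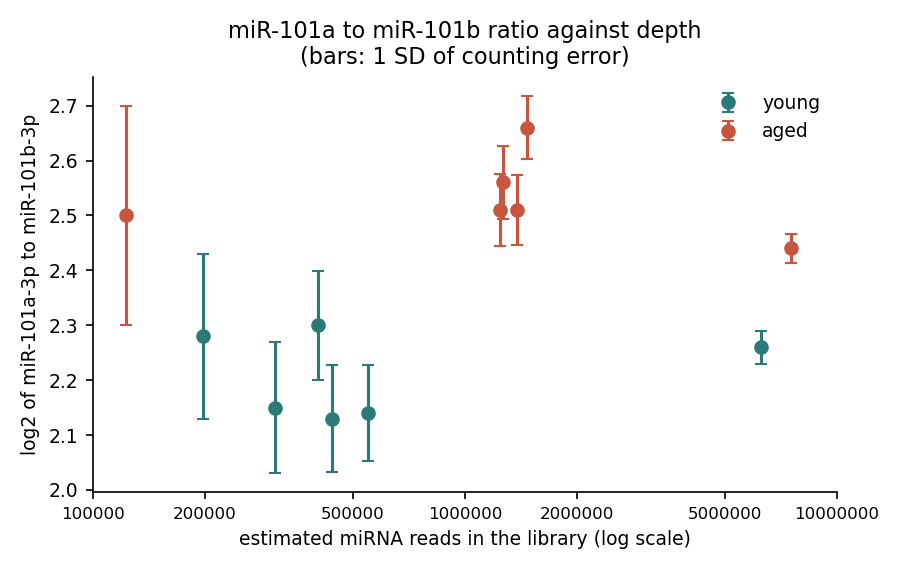
Log2 ratio of miR-101a-3p to miR-101b-3p against the estimated miRNA reads of each library (log scale); points are libraries, coloured by age, and bars are 1 SD of counting error. The deep young library is at 2.26, the deep aged library at 2.44 and the shallow aged library at 2.50; the part of depth was not tested.

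A shorter entry of the same family, miR-101c, cannot be told apart from miR-101a-3p by sequence. It is shown because all 19 of its bases lie in bases 2 to 20 of miR-101a-3p.
miR-101c: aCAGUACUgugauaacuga
Its mature sequence is annotated at chr9:3038680-3038698 (GRCm38.p6, minus strand). It measured 6128 ± 1017 FPKM in young muscle (SD, n = 6) and 6852 ± 427 FPKM (SD, n = 6) in aged muscle, which is 4.53% ± 0.609 and 4.80% ± 0.35 (SD, n = 6) of the sum of both entries. Its log2 change was 0.17 (limma adjusted p = 0.664). With miR-101c added to miR-101a-3p, the change in the log2 ratio to miR-101b-3p was again 0.32 (exact permutation p = 0.00216, adjusted 0.00649).

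The guide arm took nearly all reads of each hairpin. Over the 12 libraries there were 207 reads of miR-26b-5p for each read of miR-26b-3p and 328 reads of miR-101a-3p for each of miR-101a-5p. For Mir101b the count was 10142 reads of the guide and 1 of the passenger. MiR-26a-1-3p was listed at 0 in every library, and miR-26a-2-3p had 25 reads in young and 25 in aged libraries. Since the miR-26a guide comes from both loci, no ratio of reads is given for it.

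MiR-101a-5p is the passenger of Mir101a, and of the 3 passenger arms tested it had the largest difference in level. It measured 372, 685, 609, 428, 416 and 488 FPKM in young replicates 1 to 6. In aged replicates 1 to 6 it measured 300.2, 333, 292, 296, 0 and 309 FPKM. All aged libraries were below all young ones, as for 2.28% of all tested miRNAs. The reads behind these values were few, 92 in all young and 88 in all aged libraries, of which young replicate 6 held 70 and aged replicate 3 held 50. The 0 fell in aged replicate 5, where 1 read of 22 nucleotides is worth 377 FPKM. The log2 change was -1.08 (SE 0.51, 95% interval -2.13 to -0.04, limma adjusted p = 0.348), and without aged replicate 5 it was -0.60 (adjusted p = 0.416). MiR-26b-3p had a log2 change of -0.50 (adjusted p = 0.742), which was -0.02 without aged replicate 5 (adjusted p = 0.996). MiR-26a-2-3p had a log2 change of -0.05 (adjusted p = 0.99), which was 0.19 without that library (adjusted p = 0.936).

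As a balance of arms, the log2 ratio of 5p to 3p of Mir101a was -7.91 ± 0.37 in young muscle (SD, n = 6) and -9.07 ± 1.22 (SD, n = 6) in aged muscle. The change of -1.16 (SE 0.48) had an unadjusted p of 0.0303 and an adjusted p of 0.345 over 136 hairpins by limma. Without aged replicate 5 the change was -0.67 (adjusted p = 0.162). The change was 0.66 (adjusted p = 0.606) for Mir26b, which was 0.18 without aged replicate 5, and 0.08 (adjusted p = 0.974) for Mir26a-2. The guide in the Mir26a-2 ratio is summed over both miR-26a loci, so this is not the balance of that hairpin alone. By limma 0% of the 136 hairpins passed after adjustment, and 11.8% were under 0.05 before it.

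MiRNAs outside the families that share bases 2 to 7 with a member were also read. They are shown with their own seed in capitals.
miR-144-3p: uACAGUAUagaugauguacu
miR-582-5p: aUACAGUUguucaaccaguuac
miR-6371: uUCAAGUGgcuugaagcucuucu
MiR-144-3p, a miRNA of red blood cells, matches miR-101a-3p in these bases, miR-582-5p matches miR-101b-3p, and miR-6371 matches both miR-26 members. MiR-144-3p measured 1717 ± 367 FPKM in young muscle (SD, n = 6) and 1039 ± 375 FPKM (SD, n = 6) in aged muscle, with a log2 change of -0.77 (limma unadjusted p = 0.0118, adjusted 0.189). Against the 129209 and 136124 FPKM of miR-101a-3p it was a small part of the miRNAs with that seed core. MiR-582-5p had means of 17.1 and 13.2 FPKM, and miR-6371 was listed at 0 in all libraries.

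The 3′ untranslated region of Ezh2 was searched for the reverse complement of each seed in the transcript annotation of GENCODE M21 (mm10). The region is 402 bases long, on the minus strand of chromosome 6. TACTTGA, the match to the miR-26 seed, was found once, GTACTGT, the match to the miR-101a seed, at 2 positions, and TACTGTA, the match to the annotated miR-101b seed, once. Only the transcript strand was searched. The stretches are shown, match in capitals, because they are the letters that the members could pair with.
miR-26 match, chr6:47530284-47530307: atttgaataaagaaTACTTGAact
miR-101a match, chr6:47530473-47530496: ttcaggaaccttgaGTACTGTggg
miR-101a match, chr6:47530418-47530441: tctgaatttgcaaaGTACTGTaac
The miR-101b match overlaps the last of these and starts 1 base later. Of 15183 windows of the same length from 3′ untranslated regions, 2.88% held TACTTGA, 2.71% held GTACTGT and 3.37% held TACTGTA. A match describes letters only, and binding was not measured.

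Other miRNAs reported to target Ezh2 were taken as a list of 13, namely the let-7 family with miR-98-5p, and miR-214-3p, miR-138-5p, miR-124-3p and miR-217-5p. Of these, 12 were tested and 0 passed an adjusted p of 0.05 in either direction by limma, against 2.9% of all tested miRNAs. At an unadjusted p under 0.05 there were 2, let-7a-5p and let-7f-5p, against 12.9%. The log2 change was above 0 for 11 and below 0 for 1, with a median of 0.20. Over all 482 tested miRNAs it was above 0 for 267 and below 0 for 215, with a median of 0.07. In this list the let-7 members resemble each other in sequence and are not independent. Let-7f-5p had the highest level of the list, at 281173 ± 27212 FPKM in young muscle (SD, n = 6) and 347332 ± 43333 FPKM (SD, n = 6) in aged muscle, and a log2 change of 0.30 (adjusted p = 0.196). Let-7a-5p measured 87159 ± 13647 and 108090 ± 19437 FPKM (SD, n = 6), with a log2 change of 0.31 (adjusted p = 0.245). Let-7c-5p and let-7i-5p had log2 changes of 0.22 (adjusted p = 0.478) and 0.27 (adjusted p = 0.398). MiR-217-5p had 1 read in all libraries together and was not tested.

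Last, each member was set beside the other abundant miRNAs over the 12 libraries, as a description. Pearson's r was taken on log2(FPKM + 48.2) over 206 candidates. The libraries share their scaling and depth, and r spans both ages, so a difference between ages enters it. MiR-26a-5p varied most like miR-199a-5p (r = 0.89), miR-22-3p (0.88) and miR-126b-5p (0.88). MiR-26b-5p varied most like miR-23a-3p (0.89), miR-27a-3p (0.85) and let-7b-5p (0.84), and its r with miR-26a-5p was 0.68. MiR-101a-3p varied most like miR-378c (0.89), miR-340-5p (0.80) and miR-30a-3p (0.80). MiR-101b-3p varied most like miR-434-3p (0.85), miR-136-5p (0.79) and miR-3071-3p (0.79). Those 3 come from the imprinted Dlk1-Dio3 region. MiR-136-5p and miR-3071-3p had the same log2 change (-1.56, SE 0.24, limma adjusted p = 0.000122), so they do not count as separate patterns. Both were lower in aged muscle, and the study lists miR-434-3p as lower there too. The part of age in these r values was not tested. The r between miR-101a-3p and miR-101b-3p was 0.24, lower than the 0.68 of the miR-26 pair; the difference was not tested.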

How the data were processed

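Small RNA-enriched RNA from 12 gastrocnemius muscles was sequenced in 1 lane of an Illumina GAIIx. By the study's methods, the authors removed adaptors, aligned to mm10 by BWA with its defaults, and expressed the mature miRNAs of miRBase 20 as FPKM. Deposited are log2 FPKM values to 2 decimals, with 0 for a miRNA that had no read. Strand use and the handling of reads that fit several places are not given in the sources used here. Groups and replicate numbers came from the sample labels, which do not say that a number ties young to aged animals. The study's methods give 6 young and 6 aged mice and 12 gastrocnemius RNA samples; the labels do not tie a library to an animal.

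Values were returned to the linear scale (a 0 stayed 0) and the copies of a mature miRNA were added up, from 2035 rows to 1900 miRNAs. For the 482 miRNAs above 0 in at least 5 libraries, log2(FPKM + 48.2) entered limma 3.58.1 (R 4.3.3; lmFit, eBayes with trend, no covariate). The pseudocount is the smallest nonzero value of a library, as the median of the 12. P-values were two-sided with Benjamini-Hochberg adjustment at 0.05. Arm ratios were fitted likewise over 136 hairpins. Ratios of members were compared by exact permutation over the 924 splits. Reads were recovered from the steps of the low values. Of 3223 values under 25 reads, all of miRNAs with a RefSeq length, 99.4% came within 0.15 of a whole number. The step of each library was chosen by this same share, so the share is no separate check of the reads. FPKM was then turned into reads with RefSeq lengths for 1603 miRNAs and 22 nucleotides for the others. The fit was tested on simulated data. Python 3.11.15, pandas 2.3.3 and SciPy 1.17.1 were used.

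The members, lists and tests were chosen with earlier results of these data known. Named are the members, their other arms, miR-101c, miRNAs sharing bases 2 to 7 or 2 to 8, up to 4 of the Ezh2 list by level, and for each member the 3 miRNAs with the highest correlation. MiR-217-5p and, among the listed markers, those given with values of their own were named after their values were seen. The marker miRNAs miR-126 and miR-145 are written miR-126a and miR-145a in the table. Alternatives were other pseudocounts, filters and scalings, limma without trend, sample weights, limma voom on recovered reads, a replicate block, an exact permutation test per miRNA, copies counted once and leaving out each library. MiR-101c added to miR-101a-3p and the deep libraries alone were chosen after seeing the data.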

Additional observations from a re-analysis of the deposited data

Results flagged for a closer look

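Of 26 groups of 6 libraries examined for a lone extreme value, 4 had one, where about 1.3 would be flagged by chance, and all 4 are the same library and arise from passenger arms with 0 reads. Aged replicate 5 has the fewest reads, and 1 read of 22 nucleotides is worth 377 FPKM there. Its log2(FPKM + 48.2) was 5.59 for miR-26b-3p, where the other aged libraries lay between 8.26 and 8.83. It was 5.59 for miR-101a-5p, where the others lay between 8.41 and 8.58. The log2 ratio of 5p to 3p of Mir101a was -11.54 in that library and -8.66 to -8.42 in the others. For Mir26b it was 10.54 against 7.37 to 7.83.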

How the results depend on the processing

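Of 410 values recomputed under alternatives, 375 kept their side of the threshold and their direction (shares: stayed within 1 SD), 16 moved, 2 lost the threshold and 17 changed sign, none of these past the threshold. No member's level passed an adjusted p of 0.05 under any alternative run: the log2 change of miR-101b-3p ran from -0.30 to -0.16 (adjusted p 0.159 to 0.522), that of miR-101a-3p from 0.03 to 0.14, that of miR-26b-5p from 0.06 to 0.23 and that of miR-26a-5p from -0.19 (quantile normalization) to 0.13 (without young replicate 5), so the last has no stable sign (-0.02 to 0.13 without single libraries). Sign also changed for the level of miR-26a-2-3p (-0.05, with 0.07 by quantile normalization and -0.29 to 0.19 without single libraries). The arm ratio of Mir26a-2, with the guide of both loci, changed sign too (0.08, with -0.16 to 0.36). So did miR-26a-5p to miR-101a-3p (-0.04, with -0.10 to 0.01 without single libraries). In libraries of at least 1000000 reads, 1 of them young, the change of that last ratio was -0.29. In 4 further values, shares of miR-26a-5p (-0.0644 percentage points; 0.183 without young replicate 5) and miR-101a-3p (0.00755; -0.00224 without young replicate 6), sign changed within 1 SD. The median log2 change of all tested miRNAs, 0.07, was 0.18 with a pseudocount of 1 FPKM and -0.10 with limma voom. The number of miRNAs called, 14, was 6 with a pseudocount of 1 FPKM, 7 without a filter, 8 with a filter on the mean and 0 by the exact permutation test per miRNA, whose lowest adjusted p was 0.0803 (66 had an unadjusted p under 0.05 by it and 62 by limma). It ran from 6 to 16 when single libraries were left out, with 6 without young replicate 3, 7 without aged replicate 2, 8 without aged replicate 3 or 5, and 9 without aged replicate 1, 4 or 6.

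The log2 ratio of miR-101a-3p to miR-101b-3p changed by 0.28 to 0.34 (0.29 to 0.34 without single libraries). There, as ages never overlap, the adjusted p had to be 0.00649. Replicate numbers did not pair the libraries: same-numbered deviations correlated at -0.23 to 0.22, 1 of 6 above 0.1, and 0 of 6 libraries correlated best with their own number. With the numbers as a replicate block, the change was 0.32 with an adjusted p of 0.0938, where the smallest p of the block is 0.0312 before adjustment. The block called 14 miRNAs and changed no call on a member's level. In libraries of at least 1000000 reads the change was 0.28 (adjusted p 0.25), but with 1 young against 5 aged libraries the smallest p is 0.167 before adjustment, so this is no test of the change. The number of hairpins called, 0, was 2 with a pseudocount of 482 FPKM, 1 with the replicate block, and 0 to 2 without single libraries (2 without young replicate 4). The shares in summed FPKM differed between ages by 0.0115 percentage points for miR-26b-5p and -0.0117 for miR-101b-3p, and by 0.052 and -0.0644 with the 10 most abundant miRNAs left out of the sum, which makes every share larger.

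Depth limits the passenger arms most: miR-101a-5p and miR-26b-3p had at most 70 reads in a library and 0 in aged replicate 5.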
